A study of Mus musculus with 16 samples.

Results

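Mesothelial cells line the body cavities and the organs within them, and a set of 10 genes known as markers of this lining was followed through 16 RNA-seq libraries of mouse embryo fibroblasts (MEFs): Msln, Upk3b, Upk1b, Lrrn4, Wt1, Bnc1, Gpm6a, Aldh1a2, Rspo1 and Cldn15. The members were found by gene name in the deposited expression table, where all 10 of them were present among 12100 genes. They were proposed as a marker set with the values of all 16 libraries in view, so they were in part selected on their own levels. The comparisons of levels between lines below are therefore descriptions. No p is given for a member there, and counts of calls stand only beside the share of all genes called. The study asked what Arkadia, a RING-type ubiquitin ligase encoded by Rnf111, does to the transcriptome under TGFβ. Libraries came from poly(A)-selected RNA with a stranded kit, from untreated cells (0 h) and from cells given TGFβ at 2.5 ng/ml for 1, 4 or 16 h.

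The lines were Ark+/+ MEFs (WT), Ark-/- MEFs (null), and Ark-/- MEFs that carried a retrovirus labelled rvCAG-ArkWT (rvWT) or rvCAG-Arksim (sim), the latter with the sim mutant of Arkadia. WT and null cells were sampled at 0, 1, 4 and 16 h in set A, which held 8 libraries. Set B held the other 8 libraries: rvWT and sim at 0, 1 and 4 h, and null at 0 and 1 h. The sets are the letters in the library names, and the design text speaks of 2 batches of sequencing. Every line and time had 1 library, except null at 0 and 1 h with 1 in each set, and nothing in the labels says how many cultures, clones or embryos stand behind a line, so the p-values reflect only how these libraries scatter, and that scatter may be technical. No library of null cells with an empty retrovirus was analysed here, so what Arkadia did and what infection did cannot be told apart in rvWT and sim.

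The mesothelium forms from the coelomic epithelium of the embryo and keeps epithelial features (keratins, cell junctions, a surface coat) beside mesenchymal ones such as vimentin. Wt1 encodes a zinc finger transcription factor of the coelomic lining, Msln the surface protein mesothelin, and Aldh1a2 a retinaldehyde dehydrogenase that makes retinoic acid. TGFβ is known to push mesothelial cells towards a mesenchymal state, in which epithelial and mesothelial genes are turned down and matrix genes are turned up.

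Promoters are shown for 4 members whose responses to TGFβ are described below. The windows run from 250 bases before to 50 bases after the start site and are credited to RefSeq on GRCm38.p6. The table matched 7 members with 8 promoters, since Gpm6a had 2. No entry was matched for Msln, Upk1b and Wt1. Capitals mark GGAATG (the core letters of sites of TEAD factors, written CATTCC on the other strand), TGANTCA (AP-1) or GGCGCC (a GC-rich SMAD site), searched on both strands. The windows are Upk3b at chr5:136038246-136038545 on the plus strand, Lrrn4 at chr2:132880813-132881112 on the minus strand, Cldn15 at chr5:136967619-136967918 on the plus strand and Bnc1 at chr7:81992250-81992549 on the minus strand, each written 5′ to 3′ in the direction of its gene.
Upk3b: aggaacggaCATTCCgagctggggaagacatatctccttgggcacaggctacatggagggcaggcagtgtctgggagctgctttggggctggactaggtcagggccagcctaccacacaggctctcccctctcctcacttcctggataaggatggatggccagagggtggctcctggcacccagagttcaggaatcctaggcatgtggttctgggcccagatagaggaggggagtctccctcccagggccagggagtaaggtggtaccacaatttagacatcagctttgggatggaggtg
Lrrn4: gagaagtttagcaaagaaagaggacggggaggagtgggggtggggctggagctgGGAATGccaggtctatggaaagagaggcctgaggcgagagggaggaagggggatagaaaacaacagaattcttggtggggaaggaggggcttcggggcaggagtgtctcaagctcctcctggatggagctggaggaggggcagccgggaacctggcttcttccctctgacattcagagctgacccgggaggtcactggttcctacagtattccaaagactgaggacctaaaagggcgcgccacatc
Cldn15: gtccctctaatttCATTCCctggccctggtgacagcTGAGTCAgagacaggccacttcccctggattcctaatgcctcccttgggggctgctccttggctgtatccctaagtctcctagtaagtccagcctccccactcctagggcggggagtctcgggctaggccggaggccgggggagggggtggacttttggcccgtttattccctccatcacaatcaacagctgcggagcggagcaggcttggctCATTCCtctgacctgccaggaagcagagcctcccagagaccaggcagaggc
Bnc1: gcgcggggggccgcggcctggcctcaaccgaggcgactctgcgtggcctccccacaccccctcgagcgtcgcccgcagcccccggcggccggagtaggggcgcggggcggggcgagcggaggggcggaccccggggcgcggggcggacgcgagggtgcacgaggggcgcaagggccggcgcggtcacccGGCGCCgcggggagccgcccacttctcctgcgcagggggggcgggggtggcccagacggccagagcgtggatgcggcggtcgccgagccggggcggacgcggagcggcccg
Upk3b, Lrrn4 and Cldn15 are shown as members whose level fell under TGFβ, and Bnc1 as the member that rose. GGAATG was present in 4 of the 8 member promoters (Upk3b, Lrrn4, Cldn15 and 1 of the pair of Gpm6a), against 14.7% of all 32851 promoters of the same length. Its first base lay at -241 in Upk3b, at -196 in Lrrn4 and at -237 and -1 in Cldn15, counted from the start site. TGANTCA was found in Cldn15 alone, at -214, against 7.81% of all promoters. GGCGCC was found in Bnc1 (at -61), Rspo1 and Aldh1a2, against 11.9% of all promoters, and the Bnc1 window is 83.3% G and C against a median of 52.7%. Of the other motifs searched, the WT1 and EGR site GCGGGGGCG, the paired SMAD box GTCTAGAC and the GATA letters AGATAA were in no member window (2.91%, 0.213% and 11.2% of all promoters), and TATAAA was in 1, of Gpm6a (13.6%). No matches overlapped. A match describes letters only.

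The values are FPKM, fragments scaled to transcript length and to the mapped fragments of the library, so levels can be compared between genes per length. Total FPKM ran from 397019 to 481970 per library, no read counts were used, and the depth is unknown. The lowest mean of a gene within a set was 0.25 FPKM, so a gene that a whole set leaves off would be missing from the table. Rnf111 followed the labels: 14.5 to 15.1 FPKM in WT, 0.121 to 0.198 in null cells of set A, 0.435 to 0.526 in null cells of set B, 102.5 to 125.8 in rvWT and 55.95 to 62.1 in sim. The labelled cell type was checked against 15 fibroblast markers, of which 12 had values. Their summed level ran from 2713 to 3142 FPKM in WT, 6240 to 6605 in null of set A, 6635 to 6817 in null of set B, 8668 to 9522 in rvWT and 8286 to 8528 in sim. Among them the collagen gene Col3a1 was at 7.32 to 11.6 FPKM in WT and at 279.3 FPKM or more in every other library. The gap was smaller for Col1a1, at 436.5 to 829.1 FPKM in WT and 1008 or more elsewhere. Col1a2 was at 59.0 to 77.1 FPKM in WT and 146.3 or more elsewhere, and Thy1 at 1.996 to 2.31 and 3.82 or more. Lum was listed at 0 in WT at 4 h. Fn1 went the other way, at 808.7 to 889.1 FPKM in WT and 319.2 to 541.5 in null. Of the 12, 10 were called lower and 1 higher in WT than in null, against 30.1% and 37.4% of all genes. S100a4 weighs heavily in the sums, at 65.9 to 87.2 FPKM in WT and 1813 FPKM or more elsewhere.

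All 10 mesothelial markers were measured above 0 in all 16 libraries, beside the fibroblast markers. Summed over the 10 genes, the level was 438.0 to 685.6 FPKM in WT, 427.6 to 711.2 in null of set A, 927.5 to 934.8 in null of set B, 142.5 to 175.3 in rvWT and 185.5 to 225.6 in sim. By this sum, which leans on the most abundant members, the reconstituted lines were lowest, with no overlap with WT or null cells. Single members did not all follow it, and Cldn15 was lowest in WT. In these bulk samples, fewer cells of a type and less RNA per cell cannot be told apart.

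**Figure D1:**
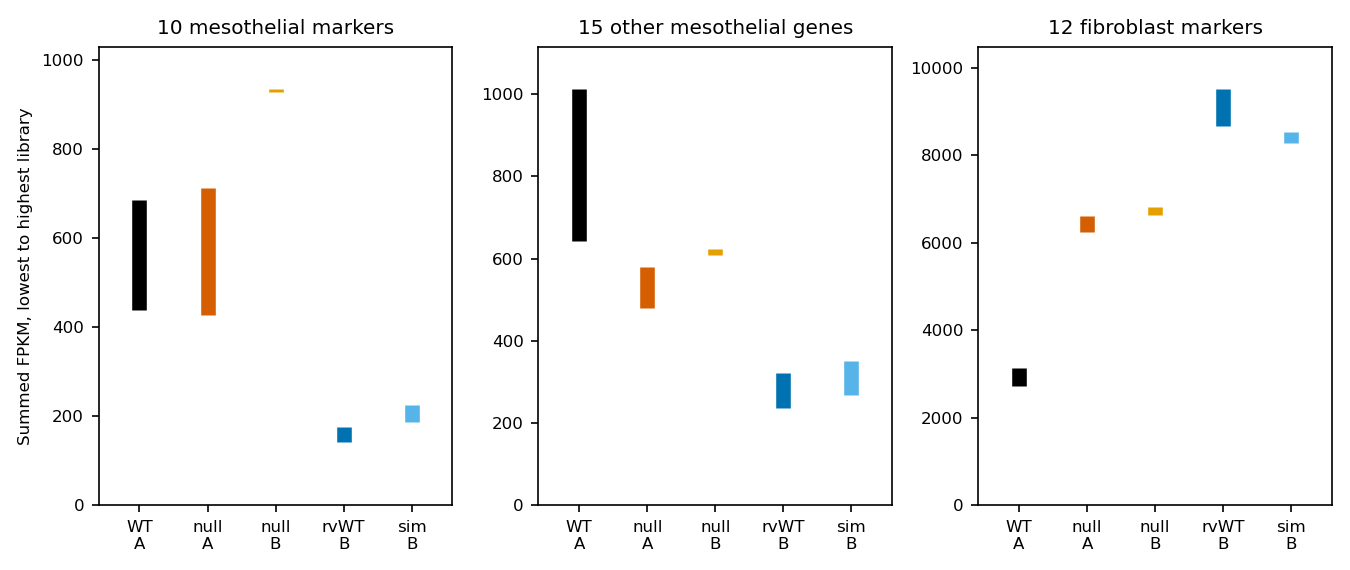
Summed FPKM (linear axis from 0) of the 10 mesothelial markers, of the 15 measured other mesothelial genes and of the 12 measured fibroblast markers; each bar spans the lowest to the highest library of a line in set A or B. The mesothelial sums of rvWT (142.5 to 175.3 FPKM) and sim (185.5 to 225.6) lie below those of WT and null, while the fibroblast sums are lowest in WT (2713 to 3142).

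Upk1b was the most abundant member in every WT library and Upk3b in every other library. Upk3b, a uroplakin of the mesothelial membrane, stood in WT at 187.8, 185.7, 133.8 and 106.8 FPKM at 0, 1, 4 and 16 h, and in null of set A at 340.7, 328.9, 301.3 and 185.5. In set B it was at 489.4 and 484.3 FPKM in null at 0 and 1 h, at 76.5, 73.2 and 65.6 in rvWT and at 103.2, 102.4 and 87.4 in sim at 0, 1 and 4 h. Null was highest in both sets and rvWT lowest, and the ranges of WT and null of set A touched only through the null library at 16 h, which lay just under WT at 0 h.

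Msln, which encodes mesothelin, was at 42.7, 43.9, 38.0 and 41.7 FPKM in WT and at 83.4, 85.9, 84.5 and 68.9 in null of set A. In set B it was at 114.6 and 116.1 FPKM in null, 19.9, 19.6 and 20.8 in rvWT and 23.3, 24.5 and 25.2 in sim. The order was null of set B, null of set A, WT, sim and rvWT, and none of these neighbours overlapped.

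Upk1b, a tetraspanin and the other uroplakin of the set, had a different order. It stood in WT at 300.6, 292.1, 254.6 and 189.6 FPKM, in null of set A at 93.8, 91.1, 83.6 and 57.6 and in null of set B at 105.1 and 96.5. In rvWT it was at 22.1, 20.2 and 16.9 FPKM and in sim at 22.9, 22.5 and 20.0. WT was highest without overlap, and the ranges of sim and rvWT overlapped.

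Lrrn4, a transmembrane protein with leucine-rich repeats, was at 15.04, 12.6, 7.71 and 9.89 FPKM in WT against 60.8, 61.3, 49.4 and 32.9 in null of set A and 85.1 and 84.8 in null of set B. It was at 15.1, 14.6 and 9.70 FPKM in rvWT and at 22.8, 21.0 and 14.7 in sim. Both null series were above all other libraries, and the ranges of rvWT overlapped those of WT and of sim.

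Gpm6a, a membrane glycoprotein also known from neurons (the entry is a single transcript variant), was at 46.9, 42.0, 24.7 and 17.6 FPKM in WT and at 40.0, 37.9, 32.5 and 18.6 in null of set A. It was at 32.6 and 33.1 FPKM in null of set B, 5.53, 5.56 and 2.56 in rvWT and 8.09, 6.33 and 4.87 in sim. WT and both null series overlapped, and rvWT and sim lay below them.

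Cldn15, a claudin of tight junctions, separated WT from the rest. It was at 0.879, 0.820, 0.726 and 0.382 FPKM in WT, against 42.9, 41.2, 30.2 and 25.2 in null of set A and 51.2 and 48.8 in null of set B. In rvWT it stood at 9.30, 9.70 and 6.62 FPKM and in sim at 12.5, 12.1 and 8.20. WT was thus the lowest series for this gene, and rvWT and sim were between WT and null.

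Among the transcription factors, Wt1 was at 64.5, 60.8, 51.9 and 49.3 FPKM in WT, 16.9, 14.9, 16.8 and 14.0 in null of set A and 17.5 and 15.6 in null of set B. It was at 4.76, 5.25 and 3.62 FPKM in rvWT and at 6.79, 6.30 and 6.05 in sim. WT was highest, the ranges of the null series overlapped, and both reconstituted lines lay below null.

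Bnc1, the zinc finger protein basonuclin 1, was at 20.2, 40.1, 25.1 and 17.5 FPKM in WT, 24.3, 32.8, 25.4 and 17.8 in null of set A and 22.6 and 33.03 in null of set B. It was at 18.6, 25.9 and 15.7 FPKM in rvWT and at 18.9, 27.8 and 16.3 in sim. Each neighbouring pair in the order of the lines overlapped, and in all 5 series the 1 h library was the highest.

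The last members act through retinoic acid and Wnt. Aldh1a2 was at 1.75, 1.86, 1.56 and 1.72 FPKM in WT, 7.85, 7.40, 6.66 and 6.25 in null of set A and 14.3 and 13.4 in null of set B. It was at 1.64, 0.984 and 0.953 FPKM in rvWT and at 1.87, 1.98 and 2.45 in sim. The null series were highest, and the ranges of WT and rvWT overlapped. Rspo1, a secreted R-spondin that strengthens Wnt signals through Lgr receptors, was at 5.18, 5.54, 3.57 and 3.44 FPKM in WT, 0.684, 0.732, 0.719 and 0.772 in null of set A and 2.3 and 1.98 in null of set B. It was at 0.192, 0.199 and 0.0904 FPKM in rvWT and at 0.435, 0.502 and 0.284 in sim. It was the scarcest member in every library of null, rvWT and sim, and no neighbouring pair in its order overlapped.

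**Figure D2:**
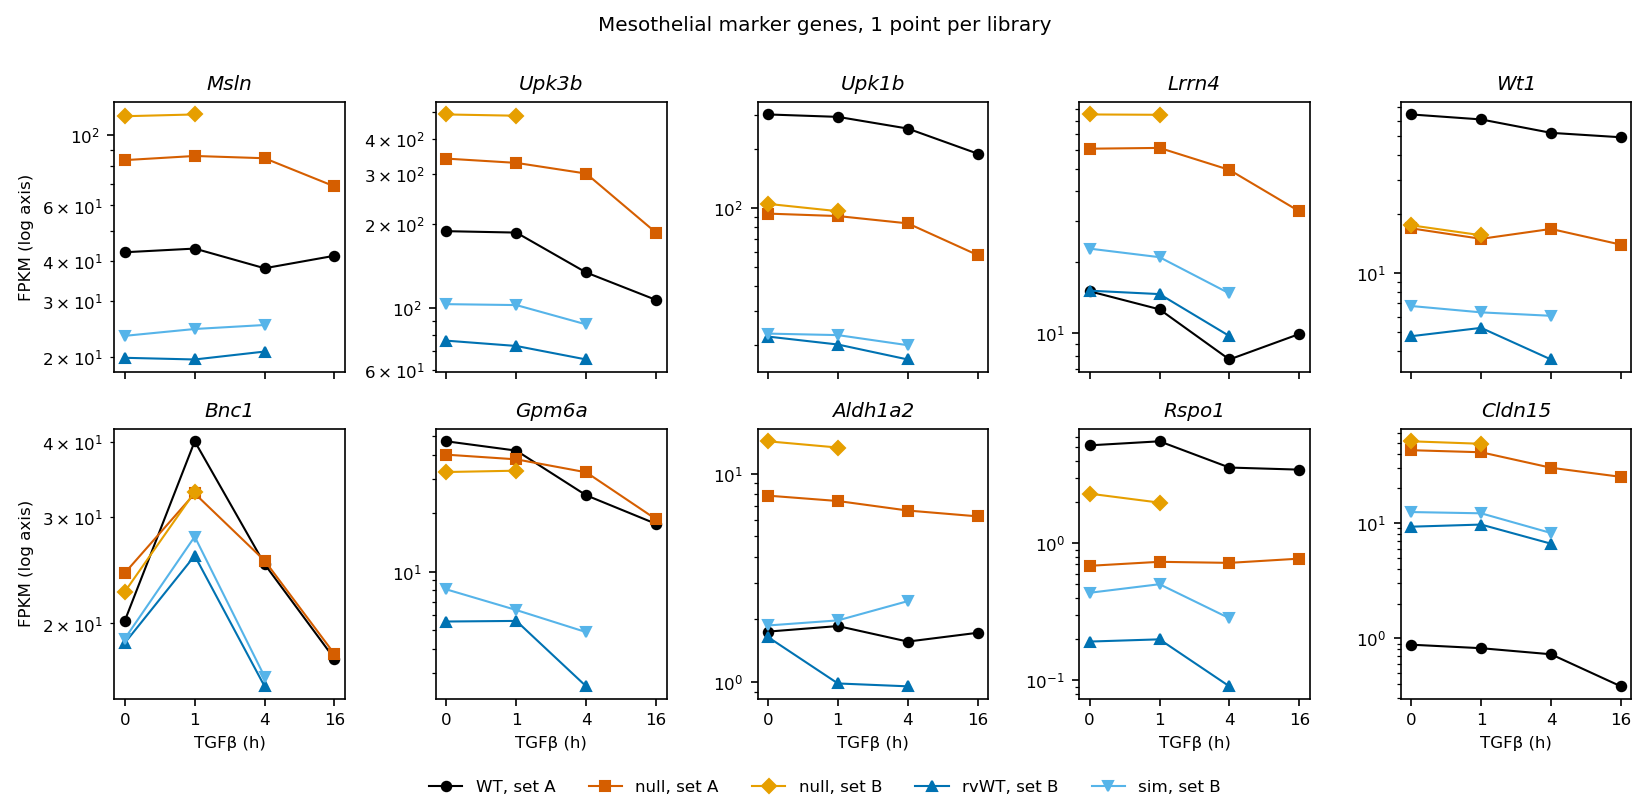
FPKM (log axis, own scale in each panel) of each member against hours of TGFβ (0 h untreated, times evenly spaced); 1 point per library, with lines joining the libraries of a series. WT is highest for Upk1b, Wt1 and Rspo1 and lowest for Cldn15, null is highest for Msln, Upk3b, Lrrn4, Aldh1a2 and Cldn15, and Bnc1 peaks at 1 h in all 5 series.

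The fit of WT against null over set A, on log2(FPKM + 1) with time as a block, gave differences of both signs. Upk1b (1.66 ± 0.04 SE), Wt1 (1.79 ± 0.07) and Rspo1 (1.63 ± 0.13) were higher in WT. Cldn15 (-4.37 ± 0.09), Lrrn4 (-2.08 ± 0.15), Aldh1a2 (-1.56 ± 0.07), Msln (-0.94 ± 0.07) and Upk3b (-0.91 ± 0.07) were lower. Bnc1 had a difference of -0.0038 (95% interval -0.23 to 0.23) and Gpm6a of -0.02 (-0.30 to 0.25). At limma's Benjamini-Hochberg adjusted p below 0.05, 3 members were called higher and 5 lower, where 37.4% of all genes tested were called higher and 30.1% lower. Because the same libraries were in view when the genes were chosen, nothing is read from that count. The median difference was -0.46 over the members and 0.07 over all genes tested. As linear ratios at matched times, WT stood at 3.04 to 3.29 times null for Upk1b, 3.09 to 4.07 times for Wt1 and 4.46 to 7.57 times for Rspo1, and at 0.0152 to 0.0240 times for Cldn15.

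In set B the members had 1 direction. All 9 members that passed the filter of a mean of 1 FPKM were lower in rvWT than in null, from -0.30 ± 0.05 (Bnc1) to -2.77 ± 0.16 (Aldh1a2), with Upk3b at -2.68 ± 0.04, Msln at -2.49 ± 0.05, Lrrn4 at -2.44 ± 0.05 and Gpm6a at -2.44 ± 0.13. Upk1b (-2.22 ± 0.06), Cldn15 (-2.27 ± 0.06) and Wt1 (-1.59 ± 0.10) were lower too. The 9 were called lower and 0 higher, against 22.6% of all genes called lower and 16% higher. The same 9 were lower in sim, from -0.24 ± 0.05 (Bnc1) to -2.27 ± 0.16 (Aldh1a2), again 9 called lower and 0 higher, against 20.8% and 13.9% of all genes. Rspo1 was below the filter, so it was not in that fit. The medians over the members were -2.44 for rvWT and -1.98 for sim, and over all genes -0.03 and -0.02. Both comparisons share the null libraries, and the members were chosen with these values in view. Under quantile normalization the share of higher among the calls over all genes went from 41.5% to 54.8% for rvWT and from 40.1% to 53.2% for sim.

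On the linear scale and against null of set B at 0 and 1 h, Upk3b in rvWT was at 15.1% to 15.6% and Msln at 16.9% to 17.3%, Wt1 at 27.2% to 33.7% and Bnc1 at 78.4% to 82.3%. In sim, Upk3b was at 21.1% to 21.2%, Msln at 20.3% to 21.1%, Wt1 at 38.7% to 40.4% and Bnc1 at 83.6% to 84.3%. The fibroblast markers were on the other side in these lines: in rvWT against null 9 of 12 were called higher and 0 lower, and in sim 10 were called higher and 1 lower. In WT against null 1 was called higher and 10 lower. Over all genes, 16% were called higher and 22.6% lower in rvWT, 13.9% and 20.8% in sim, and 37.4% and 30.1% in WT. The part of the fibroblast markers in the levels of the mesothelial markers was not tested.

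**Figure D3:**
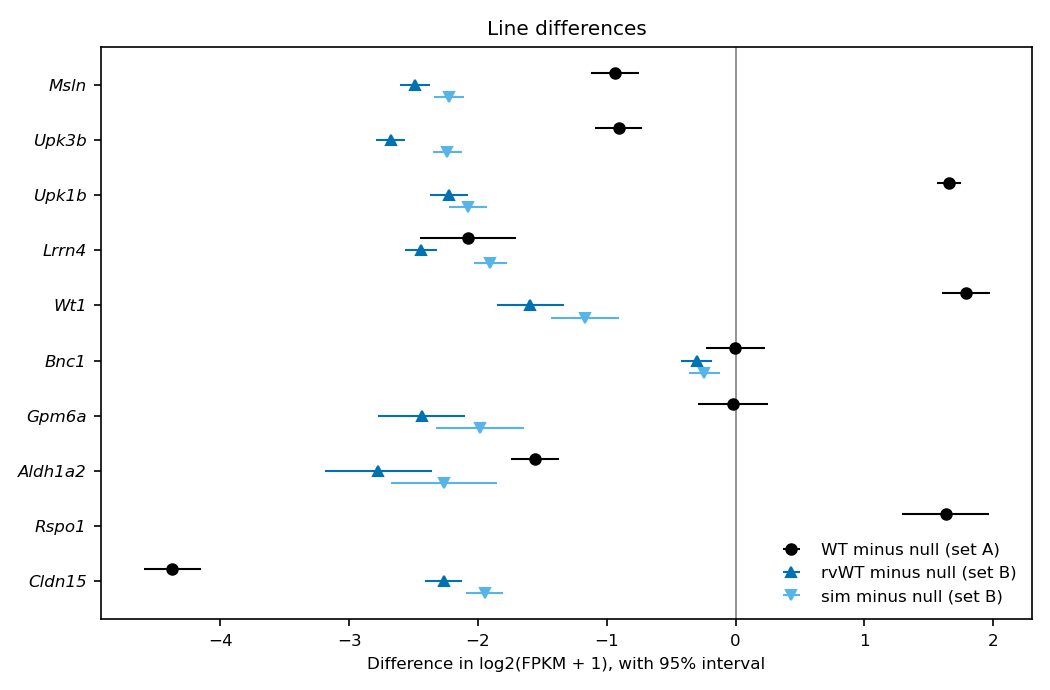
Differences in log2(FPKM + 1) between lines from the limma fits, with 95% intervals, for WT minus null in set A and for rvWT and sim minus null in set B; Rspo1 was below the filter in set B and has no point there. The set B differences lie below 0 for all 9 members shown, whereas those of WT lie on both sides, from -4.37 (Cldn15) to 1.79 (Wt1).

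At each of the 3 matched times, all 10 members were higher in sim than in rvWT. The share of all genes higher in sim at these times was not computed, so nothing is read from that count. As linear ratios, sim stood at 2.27 to 3.14 times rvWT for Rspo1, 1.14 to 2.57 times for Aldh1a2, 1.14 to 1.90 times for Gpm6a, 1.44 to 1.52 times for Lrrn4 and 1.02 to 1.08 times for Bnc1. Rspo1, which has the largest ratios, was below 1 FPKM in both lines and was not in the fit. On log2(FPKM + 1), the fitted difference was largest for Lrrn4 (0.54, 95% interval 0.43 to 0.65), Aldh1a2 (0.51, 0.15 to 0.86), Gpm6a (0.45, 0.16 to 0.74) and Upk3b (0.44, 0.34 to 0.53), and smallest for Bnc1 (0.06, -0.05 to 0.16). These intervals are for single genes, with no adjustment over genes. The median was 0.42 over the 9 members fitted and 0.01 over all genes. Rnf111 itself was lower in sim (55.95 to 62.1 FPKM) than in rvWT (102.5 to 125.8), and the part of that dose in the differences was not tested.

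Null cells were sequenced in both sets, which shows how far a level moved between sets. At 0 h the null library of set B stood at 1.44 times that of set A for Upk3b, 1.40 for Lrrn4, 1.38 for Msln, 1.82 for Aldh1a2 and 3.36 for Rspo1. It stood at 1.19 times for Cldn15, 1.12 for Upk1b, 1.04 for Wt1, 0.931 for Bnc1 and 0.814 for Gpm6a. The median of all genes was 0.03 on the log2 scale at 0 h. Set against the lower null level of set A, rvWT was at 21.8% to 22.5% for Upk3b and 22.8% to 24.6% for Msln. That comparison crosses the sets, and the part of the set in these levels was not tested.

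TGFβ responses were fitted over all 16 libraries with the 5 series as a block. The rule for the members names TGFβ time beside line, and the libraries were in view when members and lists were chosen. The p-values carry no allowance for that choice, so they are not an independent test of these genes. At 1 h, Bnc1 rose by 0.58 ± 0.08 (SE, log2 scale, limma adjusted p = 0.00179), and it was higher at 1 h in 5 of 5 series, by 0.42 to 0.95. The other 9 members did not pass, with fitted changes between -0.10 and 0.03. Thus 1 member was called higher and 0 lower, against 3.95% and 2.01% of all genes tested. The change of Bnc1 was 0.51 (adjusted p = 0.00511) in set B alone and 0.69 in set A alone, where the call was lost (adjusted p = 0.265).

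At 4 h Bnc1 did not pass (-0.02 ± 0.09), and 5 members had fallen. Gpm6a fell by 0.66 ± 0.10 (limma adjusted p = 0.00120), Lrrn4 by 0.58 ± 0.10 (0.00246), Cldn15 by 0.40 ± 0.07 (0.00259), Upk3b by 0.28 ± 0.06 (0.00414) and Upk1b by 0.25 ± 0.04 (0.00108). Each of these 5 was lower at 4 h than at 0 h in 4 of 4 series. Wt1 changed by -0.20 ± 0.08 with an adjusted p of 0.0539, and Msln by 0.01 ± 0.06. The count was 5 lower and 0 higher, where 27.1% of all genes were called lower and 11.9% higher; the share of higher among the calls over all genes moved from 30.6% to 51.1% with median-ratio scaling and to 45.5% with quantile normalization. The median was -0.23 over the 10 members and -0.08 over all genes. In set B alone the same 5 genes passed, with Gpm6a at -0.72 and Lrrn4 at -0.58, and Bnc1 passed as lower (-0.21, adjusted p = 0.0239). In set A alone none of the 5 passed (Gpm6a -0.60, Lrrn4 -0.59, adjusted p = 0.174 and 0.255).

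**Figure D4:**
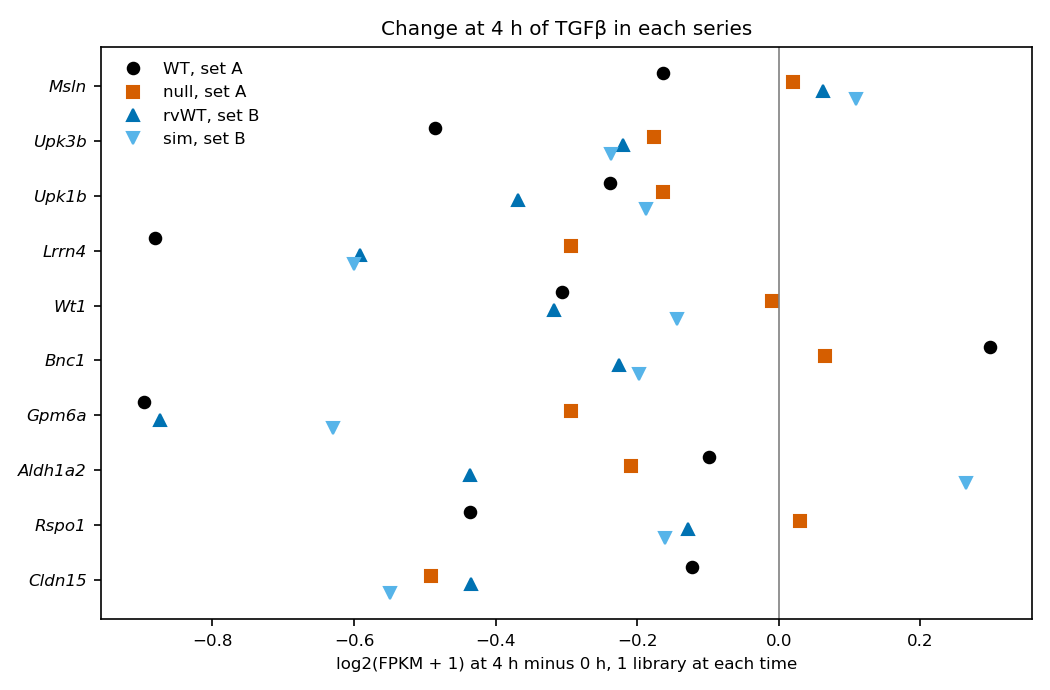
Change in log2(FPKM + 1) from 0 h to 4 h of TGFβ for each member, 1 point for each of the 4 series with a 4 h library. Upk3b, Upk1b, Lrrn4, Wt1, Gpm6a and Cldn15 lie below 0 in 4 of 4 series, while Msln lies above 0 in 3 and Bnc1 in 2.

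The 16 h value rests on WT and null of set A only, so it is not over the same series as the 4 h value. Gpm6a fell by 1.23 ± 0.13 (limma adjusted p = 0.000274), Upk3b by 0.82 ± 0.07 (6.76e-05), Upk1b by 0.70 ± 0.05 (1.43e-05), Lrrn4 by 0.70 ± 0.14 (0.00647) and Cldn15 by 0.62 ± 0.10 (0.00182). In WT, Lrrn4 was higher at 16 h than at 4 h (9.89 against 7.71 FPKM). Bnc1 (-0.42 ± 0.11, adjusted p = 0.0301) and Wt1 (-0.32 ± 0.10, 0.0463) passed by a small margin. Both lost the call under median-ratio scaling (0.0514 and 0.103) and when the null library at 16 h was left out. There the changes of Bnc1 (-0.43, adjusted p = 0.188) and Wt1 (-0.34, 0.221) were as large as with it, whereas that of Lrrn4, which lost its call as well, was smaller (-0.41, 0.122). Both also lost it with several other single libraries left out. In set A alone Gpm6a, Upk3b and Upk1b passed. Msln (-0.13 ± 0.08), Aldh1a2 (-0.17 ± 0.13) and Rspo1 (-0.22 ± 0.13) did not pass, although Msln did without the WT library at 16 h (-0.28, adjusted p = 0.0326).

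The 16 h count was 7 lower and 0 higher, against 12.5% and 6.84% of all genes, and the share of higher among all calls moved from 35.3% to 52.5% with median-ratio scaling and to 50.3% with quantile normalization. The median was -0.52 over the members and -0.07 over all genes, and all 10 fitted changes were below 0. As levels, Gpm6a went from 46.9 to 17.6 FPKM in WT and from 40.0 to 18.6 in null, and Upk3b from 187.8 to 106.8 and from 340.7 to 185.5.

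**Figure D5:**
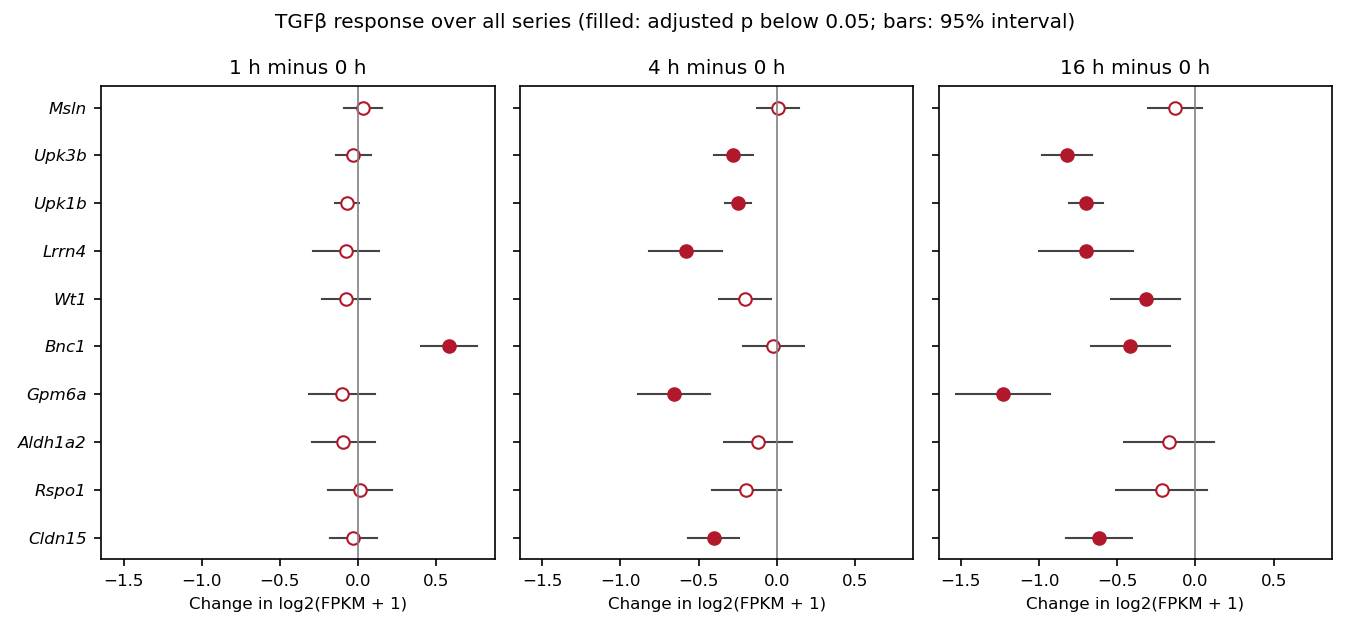
Fitted change in log2(FPKM + 1) at 1, 4 and 16 h of TGFβ against 0 h for each member, with 95% intervals; filled points passed at an adjusted p below 0.05. Bnc1 alone is filled at 1 h, 5 members are filled below 0 at 4 h, and 7 are filled at 16 h with Gpm6a lowest at -1.23.

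Whether the late change (4 and 16 h) differed in WT was fitted with a term for WT. The libraries were in view when the members were chosen, so the p-values of this fit are not an independent test either. Of the members, Cldn15 passed (0.36 ± 0.07, limma adjusted p = 0.0473), 1 higher and 0 lower, against 0.661% and 0.552% of all genes; higher made up 54.5% of these calls, 41.1% with median-ratio scaling and 38.1% with quantile normalization. Cldn15 was below 1 FPKM in WT, where the pseudocount of 1 compresses changes, and with a pseudocount of 0.1 the difference was 0.12 (adjusted p = 0.721). On the linear scale WT Cldn15 kept 82.6% of its 0 h level at 4 h and 43.5% at 16 h, and null of set A 70.4% and 58.7%, so the order of WT and null turned at 16 h. The call was also lost when any library other than null at 4 h was left out (adjusted p from 0.0686 to 0.194). Rspo1 had a difference of -0.43 ± 0.12 (adjusted p = 0.123). For Upk1b (0.01, 95% interval -0.14 to 0.17), Lrrn4 (0.00095, -0.44 to 0.44) and Upk3b (-0.16, -0.36 to 0.04) a difference was not found, within these intervals.

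The genes whose profile was most like each member were ranked by the root mean square difference of log2(FPKM + 1) after centring, over 16 libraries and 11044 candidates. Msln and Upk3b were among each other's nearest (0.23), with Stx3 nearest to Msln (0.19) and Gm2a near both. Upk1b was nearest to Smpd3 (0.18) and Wt1 to Baiap2l1 (0.21), and these 2 genes were in the first 3 of both. Lrrn4 was nearest to Pcp4l1 (0.21) and Il18 (0.21), Aldh1a2 to Tdrp (0.24), Gpm6a to Ppl (0.28) and Rspo1 to Rbm38 (0.23). Cldn15 was nearest to Cd34 (0.22), which was at 0.341 to 0.617 FPKM in WT and at 19.6 to 44.4 in null of set A. Cd34 was at 40.2 to 43.5 FPKM in null of set B, 6.23 to 11.4 in rvWT and 9.32 to 13.0 in sim. Bnc1 was nearest to Smad3 (0.20), an effector of TGFβ receptors, and Ahdc1 (0.20). The libraries share cell lines, so these ranks are a description.

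Other genes of the mesothelium moved partly with the members. Of 21 listed, 15 had values. In rvWT against null 11 of 12 tested were called lower and 1 higher, in sim 11 lower and 0 higher. In WT 8 of 14 were called lower and 5 higher. The shares of all genes called lower and higher were 22.6% and 16% in rvWT, 20.8% and 13.9% in sim, and 30.1% and 37.4% in WT. The keratin Krt19 was at 519.0, 518.6, 327.3 and 267.5 FPKM in WT and at 4.91 FPKM or less in every other library. Krt7 and Krt8, keratins of simple epithelia, were lower in WT than in null (-2.51 and -1.87), and Krt18 was at 2.18 FPKM or less in all libraries. At 16 h of TGFβ, 6 of 13 were called lower and 2 higher, against 12.5% and 6.84% of all genes. Krt19 fell by 1.08 ± 0.10 (limma adjusted p = 8.80e-05), whereas Krt8 rose by 1.35 ± 0.33 (0.0181) and Krt7 by 0.51 ± 0.14 (0.0306), the opposite direction from the members.

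Transcription factors of the coelomic lining and epicardium were called in both directions in the reconstituted lines. Of 17 listed, 11 had values, and in rvWT 3 of 10 tested were called lower and 2 higher, in sim 3 and 3. Over all genes, 22.6% were called lower and 16% higher in rvWT, and 20.8% and 13.9% in sim. Gata6, a GATA factor, was lower in rvWT (-0.87 ± 0.08), whereas Osr1, an odd-skipped factor, was higher (0.65 ± 0.09) and Tbx18 did not pass (0.21 ± 0.11). Lhx9, a LIM homeobox factor, was at 1.31 FPKM or less in every library. Under TGFβ 7 of the 10 were called lower and 1 higher at 4 h, against 27.1% and 11.9% of all genes. At 16 h 4 were called lower and 0 higher, against 12.5% and 6.84%. Osr1 fell by 1.19 ± 0.11 at 1 h (limma adjusted p = 0.000160) and Gata6 by 0.41 ± 0.08 at 4 h (0.00365).

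The pathway partners of the members were called in both directions between lines, as were all genes. Of 18 genes of the retinoid pathway, 12 had values. In rvWT against null 3 of 10 tested were called higher and 4 lower, in sim 4 and 4, and in WT 2 and 3 of 9. The shares of all genes called higher and lower were 16% and 22.6% in rvWT, 13.9% and 20.8% in sim, and 37.4% and 30.1% in WT. With so few genes, nothing is read from these counts. Aldh1a1, which shares the enzyme activity of Aldh1a2, was lower in rvWT (-2.51 ± 0.06) and sim (-2.22 ± 0.06) and higher in WT (0.51 ± 0.14) than in null. Aldh1a3 was higher in rvWT (1.85 ± 0.16). Rdh10, which makes retinaldehyde, did not pass in rvWT (0.19 ± 0.09) but was higher in sim (0.66 ± 0.09). Dhrs3, which reduces retinaldehyde, was lower in rvWT (-1.97 ± 0.21) and in sim (-1.01 ± 0.21). Under TGFβ at 4 h 2 of 10 were called higher and 3 lower, against 11.9% and 27.1% of all genes.

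Of 16 genes of the R-spondin and Wnt receptor pathway, 12 had values. In each of WT, rvWT and sim 3 of 9 tested were called higher and 5 lower. Over all genes, 37.4% were called higher and 30.1% lower in WT, 16% and 22.6% in rvWT, and 13.9% and 20.8% in sim. Nothing is read from counts over so few genes. The R-spondin receptor Lgr4 was higher than in null in WT (0.72 ± 0.12), rvWT (0.76 ± 0.15) and sim (0.89 ± 0.15). Lgr5 was at 0.0151 FPKM or less in WT and at 1.84 FPKM or more in all other libraries. The ligase Znrf3, which removes Wnt receptors, was lower in rvWT (-0.42 ± 0.08), and its relative Rnf43 was listed at 0 in WT at 16 h. At 4 h of TGFβ 1 of 9 was called higher and 3 lower, against 11.9% and 27.1% of all genes.

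Tight junction genes, the group of Cldn15, had values for 10 of 23. In rvWT against null 3 of 9 tested were called higher and 5 lower, in sim 2 and 5, and in WT 2 and 6. The shares of all genes called higher and lower were 16% and 22.6% in rvWT, 13.9% and 20.8% in sim, and 37.4% and 30.1% in WT. Nothing is read from counts over so few genes. Tjp1, the junction scaffold ZO-1, was lower in WT (-0.35 ± 0.05) and in rvWT (-0.71 ± 0.07), and the adhesion molecule F11r was higher in WT (2.58 ± 0.08) and in rvWT (0.81 ± 0.06). Cldn1 was at 1.02 FPKM or less in every library, and Cldn12 was at 3.12 to 21.3 FPKM. Of 17 paralogs of the members 7 had values. Bnc2, the paralog of Bnc1, did not pass at 1 h of TGFβ (0.06 ± 0.09), and Upk1a was at 0.829 FPKM or less in every library.

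Genes of mesenchymal transition and of the TGFβ response were read in the same fit. Of 9 transition genes, 5 were called higher and 2 lower at 4 h and 6 higher and 0 lower at 16 h. Over all genes, 11.9% were called higher and 27.1% lower at 4 h, and 6.84% and 12.5% at 16 h. Snai1, a repressor of epithelial genes, rose by 2.95 ± 0.09 at 1 h (limma adjusted p = 5.71e-08). Snai2 fell by 0.63 ± 0.10 at 1 h (0.004997). Of 7 genes known to respond to TGFβ 6 had values, and all 6 were called higher at 4 and at 16 h. Epithelial markers had values for 6 of 14, and 4 of 5 tested were called higher and 0 lower at both 4 and 16 h, among them the junction protein Jup, which went from 48.7 to 84.1 FPKM in WT at 16 h. Fibroblast markers had 2 of 12 called higher and 4 lower at 4 h, and 3 and 3 at 16 h.

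Markers of other cell types had lower sums than the members. They were summed over fewer genes, so the sums do not compare levels gene by gene. Endothelial markers had values for 2 of 7 and a summed level of 0.248 to 0.953 FPKM in WT, 5.87 to 6.47 in null of set A, 10.5 to 10.8 in null of set B, 2.76 to 4.28 in rvWT and 3.85 to 6.67 in sim. Haematopoietic markers had values for 3 of 6 and a sum of 6.36 to 16.4 FPKM over all libraries, and muscle markers for 4 of 6 and a sum of 14.7 to 28.7 FPKM. Podocyte and gonadal markers, from other cells that use Wt1, had values for 3 of 9 and summed to 22.4 to 34.1 FPKM in WT, 23.7 to 31.8 in null of set A, 29.6 to 42.5 in null of set B, 38.7 to 57.3 in rvWT and 40.6 to 58.0 in sim. The part of such cells in the results was not tested.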

How the data were processed

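RNA-seq of 16 MEF libraries was analysed from 1 table of FPKM values that the authors deposited. The submitters' processing notes list STAR (2.3.0e), Cufflinks (2.2.1), CASAVA (1.8.2), SAMtools and the build mm9, in no stated role, with annotation and normalization options not given in the sources used here. Whole reads could not be recovered (153 of 355 genes below 0.25 FPKM gave whole ratios within 0.006 log2), so the depth is unknown.

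Genes averaging 1 FPKM or more in the fitted libraries were tested on log2(FPKM + 1), which understates changes of low genes, with limma 3.58.1 (limma-trend, R 4.3.3, two-sided) and Benjamini-Hochberg adjustment over all genes tested, at an adjusted p below 0.05. Lines were compared within a set with time as a block, and TGFβ times over all libraries with the 5 series as a block. The members and gene lists were chosen with earlier results of these data known. Named genes were the members, Rnf111, and every measured gene of a list with at most 6 measured or else its first 4. The 3 genes nearest to each member were named too. Lum, Fn1 and S100a4 were named after their values were seen. A gene of the paralog list is not reported here. The fits were tested on simulated data. The alternatives changed the pseudocount (0.1 or 5), the filter (none or 5 FPKM), the scaling (median-ratio or quantile), the variance model, the model terms, the sets used and the libraries used. A further one, without small RNAs and 334 genes that drop from at least 5 to under 0.1 FPKM (Rspo1 among them), was chosen after seeing the data.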

Additional observations from a re-analysis of the deposited data

Results flagged for a closer look

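Cldn15 was the only member called in the fit of the late response to TGFβ with a term for WT. The fitted change to 4 and 16 h was higher in WT than in the other lines by 0.36 ± 0.07 (SE, log2 scale, limma adjusted p = 0.0473). The libraries were in view when the members were chosen, so that p is not an independent test. Its level went from 0.879 to 0.382 FPKM in WT and from 42.9 to 25.2 FPKM in null cells of set A between 0 and 16 h. The WT level is below 1 FPKM, where the pseudocount of 1 holds changes near 0, and with a pseudocount of 0.1 the difference was 0.12 (adjusted p = 0.721). As a share of the 0 h level, WT was at 82.6% at 4 h and 43.5% at 16 h, and null of set A at 70.4% and 58.7%, so on this scale WT had fallen more than null at 16 h. The call was lost under most alternatives.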

How the results depend on the processing

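Over the alternatives, all 177 values of WT minus null kept their call, and their direction where they were called. So did 159 of 161 for rvWT minus null and 158 of 161 for sim minus null. For sim minus rvWT 136 of 152 did. In that comparison 2 of 9 members tested (Upk3b and Lrrn4) were called higher and 0 lower. Of all 10958 genes tested, 39 were called higher and 15 lower. With any 1 library left out, the calls fell to 0 members, 0 to 5 genes higher and 1 to 6 genes lower. Robust variances gave 68 higher and 25 lower, and leaving out small RNAs and genes that drop out 63 and 26. Of the TGFβ values of members, 283 of 285 at 1 h and 270 of 285 at 4 h were kept in this way. At 16 h 237 of 276 were. A value called in neither fit counts as kept even where its sign turned. Bnc1 at 4 h was such a value, at 0.18 in set A alone against -0.02 in the main fit.

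Set A alone called 0 members higher at 1 h, 0 lower at 4 h and 3 lower at 16 h, and over all genes 9 higher and 3 lower at 1 h, 13 and 3 at 4 h, and 121 and 124 at 16 h. Set B alone called 89 genes lower at 1 h and could not be fitted at 16 h, which it lacks. With no replicate block (no term for the series) 0 members were called at 1, 4 and 16 h, Upk1b and Wt1 turned to 0.60 and 0.80 at 16 h, and the genes called higher and lower were 58 and 4, 103 and 39, and 26 and 6; the differences between lines then enter the spread. A minimum of 5 FPKM gave 115 genes lower at 1 h (222 otherwise), and median-ratio scaling 1817 lower at 4 h (2990 otherwise).

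For the late response of WT, 0 members were called higher with a pseudocount of 0.1, no filter, median-ratio scaling, quantile normalization, robust variances, WT against null of set A alone or without small RNAs and genes that drop out. A pseudocount of 5 called 1 member lower (Rspo1, -0.27, adjusted p = 0.0240) and 92 genes lower, quantile normalization 109 lower, a minimum of 5 FPKM 48 higher, and null of set A alone 0 higher and 1 lower, against 73 higher and 61 lower. The cause was not tested.

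With each library left out in turn, genes called higher and lower ran from 310 to 504 and 90 (without null at 0 h of set B) to 335 (without rvWT at 4 h) at 1 h, 894 to 1453 and 1764 (without sim at 4 h) to 3341 at 4 h, 290 to 985 and 350 (without null at 16 h) to 2041 at 16 h, and 8 to 574 and 6 to 242 for the late response (lowest without WT at 0 h, highest without WT at 4 h). Members called lower ran from 5 to 6 at 4 h and 4 to 7 at 16 h, the lowest without null at 16 h, and members called higher from 0 to 1 for the late response. For rvWT minus null the ranges were 748 to 1793 higher and 1176 to 2456 lower, and for sim minus null 591 to 1549 and 990 to 2306, with 8 to 9 members lower in both; the lowest gene counts came without null at 0 h or at 1 h of set B. Precision is limited by 1 library per line and time and an unknown depth.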
